A study of Homo sapiens with 15 samples.

Results

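Human atrial cardiomyocytes that had received a control lentivirus were compared with atrial cardiomyocytes that had received a scramble siRNA, 3 libraries a side, which makes 6 of the 15 bulk RNA-seq libraries of a study of the gene ATRNL1. The 6 were chosen by their treatment label and the matching columns of the gene count table, and all 22854 genes that passed a filter on low counts were compared. ATRNL1 was not manipulated on either side. The other 9 libraries carry siRNA-1 or siRNA-2 against ATRNL1 or a lentivirus that overexpresses its short isoform, 3 libraries each.

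All groups share a source, the human embryonic stem cell line H7-ESC with genotype wt, and a route of differentiation. Spheroids were given 1 nM TTNPB, a retinoid receptor agonist, and 100 nM retinoic acid on day 3 to direct them to an atrial fate, and were dissociated on day 17. Lentiviral particles were packaged in HEK293T cells, a human embryonic kidney line, and transduced cardiomyocytes were selected with puromycin. The sources used here do not give the insert of the control vector, the siRNA dose, the reagent, the days between delivery and harvest or the dates of culture and library preparation. Delivery route, drug selection, time in culture and batch therefore cannot be told apart in any difference below.

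A lentivirus integrates its cargo into the genome of the cell, and puromycin, which stops translation, then kills cells that lack the resistance gene. An siRNA is a short double-stranded RNA that is transfected without selection. Cardiomyocytes made from stem cells resemble fetal heart muscle: they contract, depend largely on glycolysis and can still enter the cell cycle, and they lose the last of these traits as they mature. Their stress programmes are well mapped, among them the unfolded protein response to misfolded protein in the endoplasmic reticulum, the integrated stress response that acts through ATF4, and the hypoxia response that drives glycolytic enzymes through HIF.

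Levels are given as CPM, read counts scaled to the size of each library with TMM factors, and libraries carry the numbers of the table's columns. CPM values are not divided by gene length, so they compare libraries and not genes. A difference is control lentivirus minus scramble on the log2 scale, and the figure after ± is its standard error. A gene is said to have risen or fallen where its p in edgeR's quasi-likelihood test, adjusted by Benjamini-Hochberg across every gene tested, was under 0.05. A value in square brackets after a difference is the same difference with the trend of each library with GC content and length taken out. It is given where that offset changes the call or moves the value by over 1.5 times.

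The cells carried cardiomyocyte transcripts in both groups. The troponin T gene TNNT2 measured 3469, 2528 and 3000.1 CPM in scramble libraries 1 to 3 and 3652, 3804 and 3904 CPM in control lentivirus libraries 1 to 3. The atrial light chain MYL7 measured 2545, 1918 and 2307 against 2618, 2637 and 2516 CPM, ranges that overlap. It missed the threshold (log2 difference 0.18 ± 0.09 [1.06], adjusted p = 0.096), which it passed without scramble library 1 (0.29). MYL7 was also called as a rise with the offset, with DESeq2 (0.22), with limma voom (0.17) and with no filter on low counts (0.17). Not every atrial marker was present: SLN, the atrial calcium pump regulator sarcolipin, had 36 counts over the 3 scramble libraries and 34 over the 3 control lentivirus libraries, and was at most 0.217 CPM in each. The ventricular light chain MYL2 and the slow myosin MYH7 were both present, at 1195, 1069 and 1134 and 4454, 4008 and 4257 CPM in the scramble libraries. ATRNL1 itself, untargeted here, measured 16.9, 13.8 and 15.3 CPM against 29.2, 27.6 and 27.1 CPM, higher in each control lentivirus library (log2 difference 0.86 ± 0.08 [0.34], adjusted p = 4.0e-06), and its paralog ATRN did not pass the test (log2 difference 0.00 ± 0.05 [-0.12], adjusted p = 0.98).

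Depth was 44584366 to 107062380 counts in the scramble libraries and 46662214 to 108663135 in the control lentivirus libraries. Scramble library 3 lay between the other 2 scramble libraries at 74.4% of 7258 well expressed genes and control lentivirus library 2 between its neighbours at 57.4%. An equal share among 3 libraries is 33.3%, which libraries that differ along 1 shared trend can also exceed. In the other groups the highest share was 52.3% (siRNA-1 library 2), 40.4% (siRNA-2 library 2) and 51.6% (ATRNL1 lentivirus library 3). A weighted sum of scramble libraries 1 and 2, taking 50.95% of counts from library 1, matched library 3 to a median of 1.95 times counting variance, while pairs of scramble libraries differed by 5.72 to 11.8 times. The same fit gave 2.07 for library 1 and 2.01 for library 2, each with a negative weight for one of its neighbours. In the control lentivirus group it gave 2.92, 2.59 and 2.59 for libraries 1 to 3, with negative weights for libraries 1 and 3, against 3.15 to 5.34 between pairs. In the siRNA-1 group it gave 2.06, 1.96 and 2.09, again with negative weights for libraries 1 and 3, against 2.92 to 8.05 between pairs. The siRNA-2 group gave 3.36 to 3.87 against 3.43 to 4.26, and the ATRNL1 lentivirus group 8.39 to 13.3 against 8.19 to 14.8. In the sample titles, the number of 1 control lentivirus sample is made of the digits of the other 2 samples' numbers, and the titles are not tied one by one to the table's columns. The sources used here do not say whether these middle libraries are pools of the others, nor that the 3 libraries of a group came from separate cultures. A pooled library would leave fewer than 3 separate samples in its group. The p-values measure the spread between these libraries, which may be technical.

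Most genes differed between the 2 control cultures. Of 22854 genes, 15159 passed the test (66.3%), 7345 of them higher with the control lentivirus (32.1%) and 7814 lower (34.2%). Differences of at least 1 on the log2 scale were found at 6702 genes (29.3%), 2560 of them up (11.2%) and 4142 down (18.1%). At 16235 genes (71.0%) the 2 groups of libraries did not overlap. The median difference over all genes was -0.04 and the median size 0.62. With library sizes left unscaled, the median moved to -0.22 and the split to 5754 higher and 9445 lower, so 37.9% of calls instead of 48.5% were rises. Without the middle library of each group, 5749 genes rose, 6145 fell and 6203 differed by at least 1.

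The difference followed the base composition of the genes. Over 14886 genes with a mean of at least 1 CPM, it had a Spearman correlation of -0.65 with GC content across genes, which share their libraries and are not independent replicates. In the tenth of genes poorest in GC (up to 38.2%), the median was 0.63 and 81.0% rose. In the tenth richest in GC (60.6% and above), the median was -1.48 and 92.5% fell. When the GC and length trend of each library was taken out as an offset, a step added after the data had been seen, 57.9% of genes were called, of which 6341 rose (27.8%), 6897 fell (30.2%) and 4112 differed by at least 1. Of the 15159 calls, 9378 kept their direction and their call, 4261 lost the call and 1520 were called the opposite way. Offset values therefore stand beside each gene group below where they turn its median or move its median or a count by over 1.5 times. Counts of rises and falls below stand against 32.1% and 34.2% of all genes, and offset counts against 27.8% and 30.2%. Whether the trend arose in the cells or in library preparation was not tested.

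**Figure D1:**
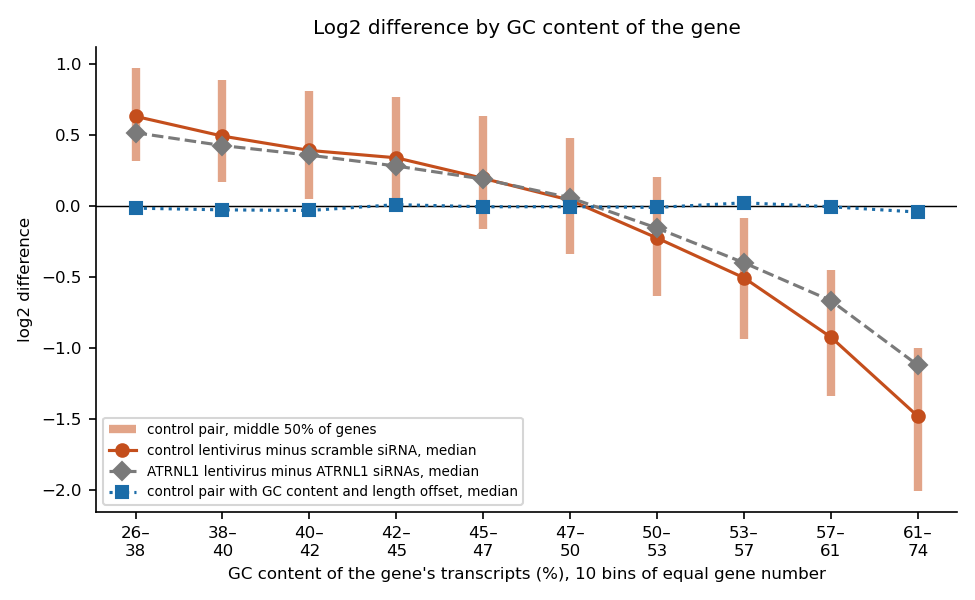
Median log2 difference (y axis) of 14886 genes in 10 bins of GC content (x axis, percent) for control lentivirus minus scramble siRNA (circles, with bars for the middle 50% of genes), for ATRNL1 lentivirus minus the 2 ATRNL1 siRNAs in 9 other libraries (diamonds), and for the control pair with the GC content and length offset (squares). The control pair runs from 0.63 in the poorest bin to -1.48 in the richest, the other pair from 0.51 to -1.12, and the offset values stay between -0.04 and 0.02.

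Residual ribosomal RNA moved with the groups too. The mitochondrial ribosomal RNAs headed the rises: MT-RNR2 measured 8.01, 9.32 and 12.1 CPM in the scramble libraries and 962, 899.5 and 543 CPM in the control lentivirus libraries, and MT-RNR1 3.67, 4.32 and 6.33 against 365, 285 and 163 CPM. Per the labels' protocols the libraries were depleted of ribosomal RNA, although the molecule field names polyA RNA. The depth of any depletion or selection and the level in the cells cannot be told apart. The mRNAs encoded in the mitochondrial genome showed no such rise, with 2 of 13 up, 2 down and a median of 0.02 (-0.17 with library sizes unscaled). With the offset 0 rose, 7 fell and the median was -0.27.

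After the ribosomal RNAs, TXNIP showed the highest rise among genes with a mean of at least 1 CPM. TXNIP (chr1:145992435-145996600, GRCh38) encodes thioredoxin-interacting protein, which restrains glucose uptake and is itself induced by glucose. It measured 7.25, 4.51 and 4.96 CPM in the scramble libraries and 255, 275 and 282 CPM in the control lentivirus libraries. The groups did not overlap, which the choice of leading genes required (log2 difference 5.61 ± 0.15, a 49.0-fold rise, adjusted p = 6.6e-09). The offset left the difference at 5.32. The ATRNL1 lentivirus libraries, with 19.5, 20.7 and 19.9 CPM, lay between the 2 groups.

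Most of the other 9 leading rises take part in cell division or DNA replication. They were SPC25 of the kinetochore (4.14), the CDK inhibitor CDKN2C (4.08), the ribonucleotide reductase subunit RRM2 (4.07), the PCNA-binding factor PCLAF (4.05), the mitotic kinase PBK (3.98) and the replication factor FAM111B (3.93). The remaining 3, XKR4 (4.34), XKR5 (4.19) and the meiosis gene TEX15 (4.17), rested on fewer reads, with 48, 94 and 23 counts over the 3 scramble libraries.

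The 12 leading falls included several stress-induced genes. HSPA6, a strictly inducible heat shock protein (chr1:161524540-161526910, GRCh38), measured 2.26, 6.15 and 4.06 CPM in the scramble libraries and had 4 counts over the 3 control lentivirus libraries, a ratio of 250.6 with a 95% counting interval of 97.5 to 921.6. NDUFA4L2, a hypoxia-induced mitochondrial protein, went from 7.36, 7.24 and 6.12 CPM to 0.191, 0.142 and 0.0933 CPM (log2 difference -5.55 ± 0.19, adjusted p = 1.2e-08). All 3 control lentivirus libraries lay below the lowest scramble library in both genes, as the choice of leading genes required. The others were the stress cytokine GDF15 (-5.01), the mTORC1 inhibitor DDIT4 (-4.51), the heat shock factor HSF4 (-5.54), the neuropeptide NMB (-5.20), the T-type calcium channel CACNA1I (-4.77), the matrix protein TNXB (-4.58 [-2.96]), the melanosome protein PMEL (-4.45), STAC2, which binds calcium channels (-4.40), LCNL1 (-5.63) and HAGHL (-4.48 [-2.98]). Each of the 12 kept its fall with the offset.

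**Figure D2:**
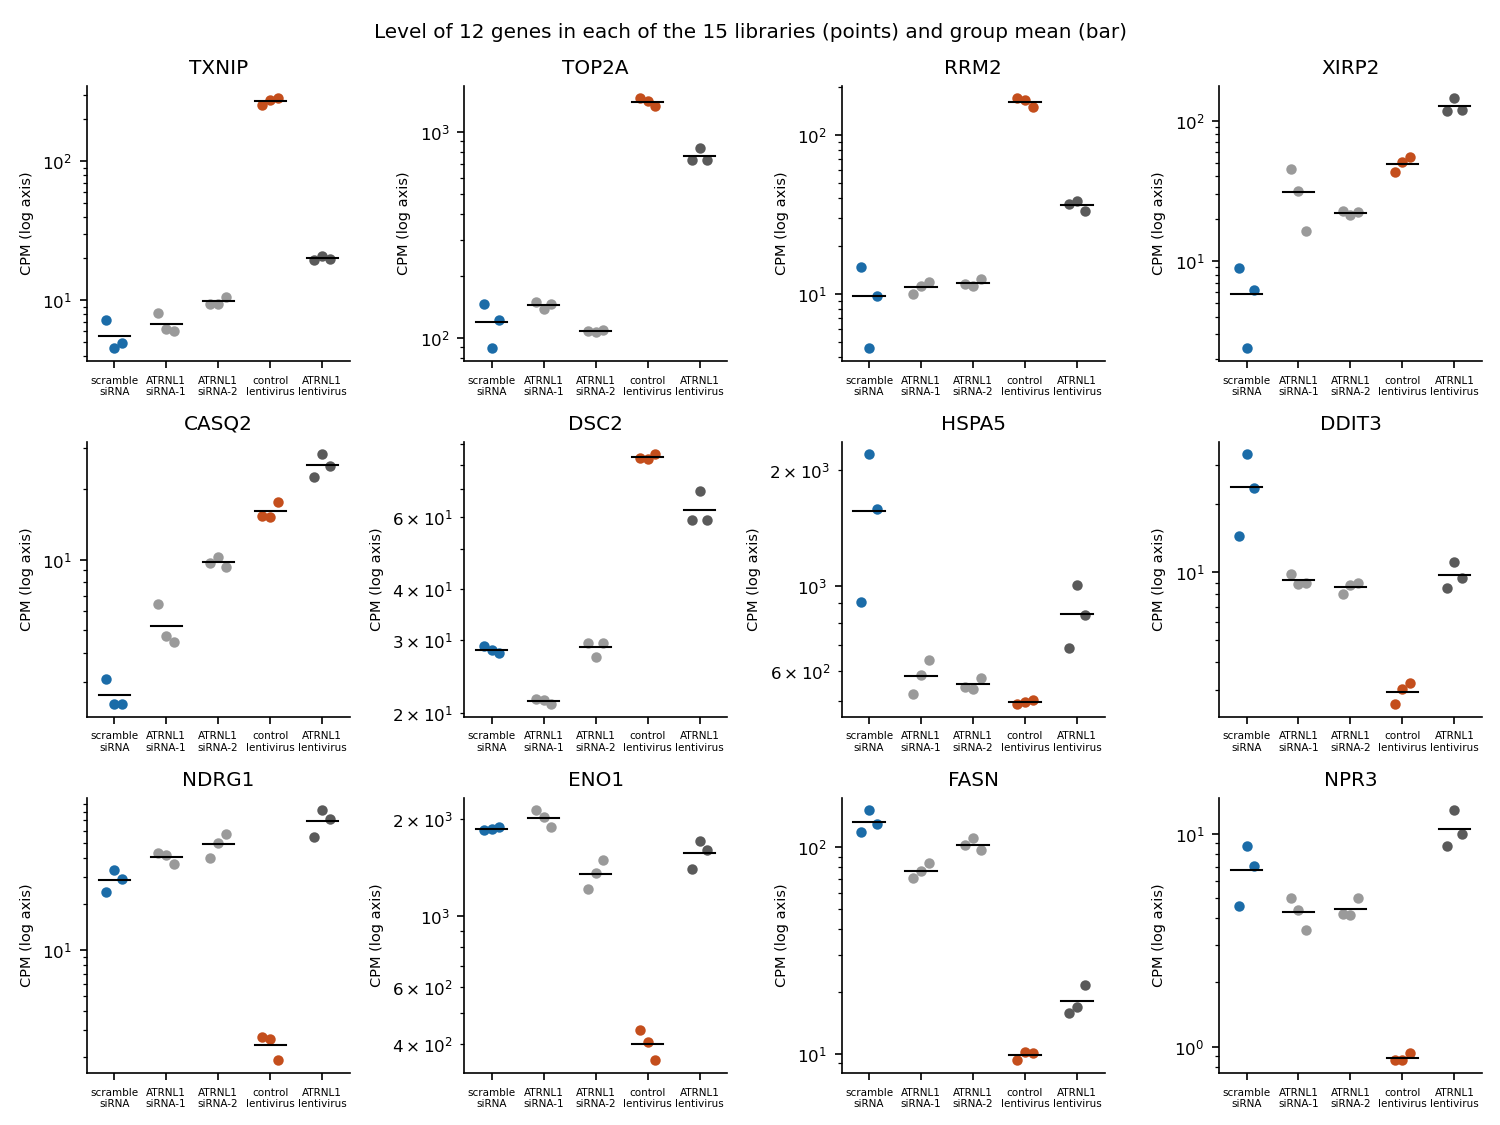
Level of 12 genes in each of the 15 libraries (y axis, CPM on a log scale; x axis, group), with points for libraries and bars for group means; scramble siRNA is blue, control lentivirus orange and the ATRNL1 groups grey. TXNIP, TOP2A and RRM2 are high in the control lentivirus libraries, NDRG1 is lower there than in each of the 12 other libraries, and DDIT3, ENO1 and NPR3 are lower there than in each scramble library.

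Cell cycle genes rose as a body. All 38 tested members of the list rose, from 0.53 to 4.07 on the log2 scale with a median of 2.61, against 32.1% of all genes and a median of -0.04. TOP2A, the topoisomerase that untangles chromosomes for mitosis, measured 146, 88.8 and 122 CPM in the scramble libraries and 1454, 1411 and 1340.2 CPM in the control lentivirus libraries (log2 difference 3.54 ± 0.16, adjusted p = 3.7e-08). The proliferation antigen MKI67 went from 103, 47.7 and 74.9 CPM to 665, 664 and 669 CPM (log2 difference 3.13 ± 0.22), with the 3 control lentivirus libraries within a few CPM of each other and scramble library 2 the lowest of its group. RRM2, which makes the deoxynucleotides for DNA synthesis, went from 14.8, 4.53 and 9.61 CPM to 169, 165 and 149 CPM (log2 difference 4.07 ± 0.31, adjusted p = 1.1e-06).

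Genes of mitosis and of DNA replication both rose. The mitotic motor KIF11 rose by 3.63, the cyclin CCNA2 by 3.48 and the mitotic kinase CDK1 by 3.19. Among the helicase subunits that license replication origins the rises were 2.63 for MCM6 and 1.10 [1.82] (MCM5) to 1.33 [2.13] (MCM7) for the other 5. The D cyclins, which receive growth signals, had the smallest rises of the list, CCND2 from 1028, 986 and 1006 CPM to 1595, 1644 and 1671 CPM (log2 difference 0.69 ± 0.05 [0.44]) and CCND1 by 0.53. The groups did not overlap in any of these genes, as at 71.0% of all genes. With the offset all 38 still rose, with a median of 2.45.

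Many of the mitotic genes carry a cell cycle genes homology region (CHR), the letters TTTGAA or TTTAAA on either strand, through which the MuvB complex is known to act. In the 250 bases before the start of RefSeq promoters (GRCh38.p14), 29 of the 38 genes matched an entry, and 18 of their 35 promoters held such letters (51.4%), against 21.9% of all 35116 promoters. A match is a description of the letters and not a test of binding. In 4 of the genes the letters begin 28 to 30 bases before the start, which the last 60 bases of each promoter show 5′ to 3′ on the gene's strand, with the CHR letters in capitals.
CCNB2 (chr15:59105086-59105145, plus strand): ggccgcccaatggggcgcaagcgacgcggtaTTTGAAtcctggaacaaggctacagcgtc
PLK1 (chr16:23678829-23678888, plus strand): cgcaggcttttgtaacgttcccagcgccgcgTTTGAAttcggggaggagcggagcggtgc
KIF11 (chr10:92593070-92593129, plus strand): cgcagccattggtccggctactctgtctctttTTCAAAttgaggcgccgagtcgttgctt
RRM2 (chr2:10122679-10122738, plus strand): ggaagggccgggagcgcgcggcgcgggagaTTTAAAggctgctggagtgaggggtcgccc
KIF11 holds the reverse complement. Of these genes, the cyclin CCNB2 rose by 2.72, the kinase PLK1 by 2.27, KIF11 by 3.63 and RRM2 by 4.07.

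Contractile genes split, with more rises than falls. Of 30 sarcomere genes, 15 rose and 8 fell (median 0.33), against 32.1% and 34.2% of all genes, and with the offset 20 rose and 3 fell (median 0.54). XIRP2, which binds actin at the Z-disc and intercalated disc, measured 8.93, 2.38 and 6.24 CPM in the scramble libraries and 43.0, 50.4 and 54.8 CPM in the control lentivirus libraries (log2 difference 3.08 ± 0.32, adjusted p = 1.2e-05), the highest rise of the list. The slow myosin heavy chain MYH7 went from 4454, 4008 and 4257 CPM to 6851, 7618 and 8137 CPM (log2 difference 0.81 ± 0.07 [1.57]), above every scramble library. Its fast partner MYH6, the main atrial heavy chain, went the other way, from 11426, 7258 and 9382 CPM to 4587, 4550.2 and 4426 CPM (log2 difference -1.06 ± 0.13, adjusted p = 4.6e-05), but with the offset its difference was -0.29 and no longer passed (adjusted p = 0.094). The atrial light chain MYL4 rose by 1.03 [1.64] and the ventricular light chain MYL2 by 0.85. The crosslinker ACTN2 rose by 0.57 and TNNT2 by 0.32 [0.50]. TNNT2 lost its call without scramble library 3 (0.31), without the middle library of each group (0.32) and with library sizes unscaled (0.14). Of the troponin I genes, the fetal TNNI1 fell (-0.72 [-0.27]) and the adult TNNI3 (-1.54 [-0.65]).

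Adhesion genes of the intercalated disc rose in 10 of 15 cases and fell in 2 (median 0.66), against 32.1% and 34.2% of all genes. The desmosomal cadherin DSC2 measured 29.02, 28.5 and 27.9 CPM in the scramble libraries and 83.3, 82.7 and 85.0 CPM in the control lentivirus libraries (log2 difference 1.54 ± 0.05 [1.02], adjusted p = 6.6e-09). Its partner DSG2 rose by 1.22 [0.81] and the plaque protein PKP2 by 1.15. The plaque protein JUP fell instead, from 130.4, 111 and 120.2 CPM to 35.2, 39.2 and 39.5 CPM (log2 difference -1.68 ± 0.07 [-0.47]), and DSP fell (-0.47). Connexins also differed: the atrial GJA5 rose from 15.8, 9.59 and 12.2 CPM to 35.6, 36.2 and 39.1 CPM (log2 difference 1.55 ± 0.14). The main ventricular connexin GJA1 measured 148, 149.9 and 151 against 135, 143 and 149 CPM, overlapping groups that did not pass the test (log2 difference -0.09 ± 0.05 [-0.54], adjusted p = 0.15). GJA1 was called as a fall with the offset, with library sizes unscaled (-0.27) and with upper quartile scaling (-0.14). It was also called with a filter of 1 CPM in 3 libraries (-0.13) and with limma voom (-0.09).

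Calcium handling genes gave 11 rises and 5 falls among 19 (median 0.40), or 9 and 5 with a median of 0.16 with the offset. Over all genes 32.1% rose and 34.2% fell, or 27.8% and 30.2% with the offset. The calcium store protein CASQ2 went from 3.08, 2.40 and 2.41 CPM to 15.3, 15.2 and 17.7 CPM (log2 difference 2.62 ± 0.11, adjusted p = 3.4e-08). The inositol trisphosphate receptor ITPR2 rose by 1.58 and the release complex protein TRDN by 1.12 [0.49]. The release channel RYR2 and the pump ATP2A2 fell (-0.21 [-0.37] and -0.40), and CAMK2A fell (-1.09 [-0.56]). RYR2 lost its call without the middle library of each group (-0.20, adjusted p = 0.14 by edgeR's quasi-likelihood test). PLN, which restrains the pump, went from 2535, 2350.1 and 2333 CPM to 3668, 3354 and 3292 CPM (log2 difference 0.50 ± 0.06), a direction that the offset turned (-0.20).

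Ion channel genes of the action potential fell more often than they rose, 11 against 5 of 24 (median -0.21). With the offset 7 fell and 9 rose (median 0.12). The shares over all genes were 34.2% falls and 32.1% rises, or 30.2% and 27.8% with the offset. TRPM4, a calcium-activated cation channel, measured 36.4, 37.8 and 38.8 CPM against 8.15, 8.13 and 8.87 CPM (log2 difference -2.19 ± 0.06; -0.76 with the offset). The ATP-sensitive potassium channel KCNJ11 fell (-2.08 [-0.88]) and the slow delayed rectifier KCNQ1 (-1.97 [-0.51]). The atrial potassium channels rose: KCNJ3 from 21.3, 17.7 and 19.6 CPM to 36.0, 37.3 and 39.8 CPM (log2 difference 0.93 ± 0.07 [0.49]), and KCNA5, at 1.39 to 4.11 CPM, by 0.92 [1.84]. The pacemaker channel HCN4 fell from 421, 303 and 358 CPM to 251, 260.3 and 249.6 CPM (log2 difference -0.52 ± 0.10), and with the offset it rose (0.71).

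Atrial identity genes rose in 10 and fell in 3 of 21 cases (median 0.41), or 17 and 1 with the offset (median 0.68). The counts were 6 and 7 of 16 for ventricular identity genes (median -0.13, turned to 0.21 by the offset). Both lists stand against 32.1% rises and 34.2% falls over all genes. PAM, an amidating enzyme that is abundant in atrial granules, went from 1149, 787 and 972 CPM to 3261, 3312 and 3305 CPM (log2 difference 1.75 ± 0.11, adjusted p = 4.1e-07). The natriuretic peptides took opposite directions, NPPA from 70.0, 59.8 and 59.5 CPM to 83.9, 102 and 99.2 CPM (log2 difference 0.58 ± 0.09 [1.12]) and NPPB from 103, 69.6 and 81.8 CPM to 61.4, 57.7 and 44.6 CPM (log2 difference -0.65 ± 0.14), and NPPB lost its call with the offset (0.05). The atrial transcription factor NR2F2 rose by 0.45, and TBX5 measured 204, 168 and 184 against 196, 199 and 198 CPM without passing (adjusted p = 0.33; 0.16 and called without scramble library 1).

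Natriuretic and hypertrophy genes rose in 9 of 13 cases and fell in 3 (median 0.58), or 10 and 1 with the offset (median 1.10). ANKRD1, a stretch-induced cofactor, went from 1248, 473 and 864 CPM to 4139, 3734 and 3262 CPM (log2 difference 2.09 ± 0.28, adjusted p = 7.7e-05), and scramble library 2 was again the lowest. The calcineurin inhibitor RCAN1 rose by 1.66, the sarcomere protein FHL1 by 1.51 and CORIN, the protease that activates natriuretic peptides, by 1.44. NPR3, which clears natriuretic peptides, fell from 4.56, 8.71 and 7.02 CPM to 0.861, 0.861 and 0.933 CPM (log2 difference -2.97 ± 0.23, adjusted p = 1.6e-06).

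Most hypoxia and glycolysis genes fell. Of 32 genes, 29 fell and 1 rose, with a median of -1.64, against 34.2% falls over all genes. With the offset 28 fell, none rose and the median was -1.12.  NDRG1, a hypoxia-induced growth regulator, measured 24.1, 33.2 and 28.99 CPM in the scramble libraries and 2.71, 2.65 and 1.91 CPM in the control lentivirus libraries (log2 difference -3.55 ± 0.15, a 11.7-fold fall, adjusted p = 2.9e-08). The lactate exporter SLC16A3 fell (-3.07 [-1.73]) and the carbonic anhydrase CA9 fell from 2.61, 2.43 and 2.54 CPM to 0.335, 0.213 and 0.373 CPM (log2 difference -3.13 ± 0.21 [-2.07]). VEGFA, which draws in blood vessels, went from 469, 622 and 544 CPM to 118, 118 and 115 CPM (log2 difference -2.24 ± 0.09).

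Enzymes fell at the start, the middle and the end of glycolysis. GAPDH measured 2480.0, 2605 and 2529.5 CPM in the scramble libraries and 578, 537 and 497 CPM in the control lentivirus libraries (log2 difference -2.25 ± 0.06 [-1.32], adjusted p = 6.6e-09), so this usual reference gene differed 4.8-fold between the 2 controls. The enolases ENO1 and ENO2 fell (-2.24 and -2.57), hexokinase HK2 (-1.79), the phosphofructokinase PFKP (-1.73 [-0.92]), PGK1 (-1.93), TPI1 (-1.97 [-1.20]) and the glucose transporter SLC2A1 (-1.89). Lactate dehydrogenase LDHA went from 2238, 2106 and 2231 CPM to 1031, 827 and 630.2 CPM (log2 difference -1.42 ± 0.14), and the mitophagy receptor BNIP3 from 542, 568 and 546 CPM to 316, 234 and 154 CPM (log2 difference -1.25 ± 0.20). Within the control lentivirus group, library 1 was the highest and library 3 the lowest in both, but all 3 lay below every scramble library. The oxygen sensor EGLN1 rose by 0.53 [0.21] and lost that call with the offset, and EGLN3 and BNIP3L did not pass (0.23 and -0.14 [-0.69]). EGLN3 passed without control lentivirus library 3 (0.38) or scramble library 2 (0.28), and BNIP3L without control lentivirus library 1 (-0.25).

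HIF binds the core letters ACGTG, a motif added after the data had been seen. On either strand, 22 of 48 promoters of 28 matched genes held them (45.8%), against 18.5% of all promoters, and a match is again letters only. LDHA and PGK1 show how they sit, in capitals, in the 200 and 220 bases before the start.
LDHA (chr11:18394363-18394562, plus strand): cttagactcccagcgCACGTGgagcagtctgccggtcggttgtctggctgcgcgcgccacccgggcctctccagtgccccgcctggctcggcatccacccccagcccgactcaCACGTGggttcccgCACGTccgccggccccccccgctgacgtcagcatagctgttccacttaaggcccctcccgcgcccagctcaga
PGK1 (chrX:78104028-78104247, plus strand): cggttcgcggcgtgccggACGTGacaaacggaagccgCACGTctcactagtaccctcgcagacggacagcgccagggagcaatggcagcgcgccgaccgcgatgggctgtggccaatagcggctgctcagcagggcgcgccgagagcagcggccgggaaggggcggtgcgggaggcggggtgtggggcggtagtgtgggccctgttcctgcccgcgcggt
LDHA holds 5 matches, counting both strands of the palindrome CACGTG, and PGK1 holds 2. That palindrome occurred in 8 of the 48 promoters (16.7%) and in 6.34% of all promoters.

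The integrated stress response fell with it. Of 29 genes 23 fell and 2 rose (median -1.57), and with the offset 22 fell and 3 rose. DDIT3, the stress transcription factor CHOP, measured 14.5, 33.3 and 23.6 CPM in the scramble libraries and 2.60, 3.03 and 3.22 CPM in the control lentivirus libraries (log2 difference -3.04 ± 0.27, adjusted p = 3.6e-06). TRIB3, a pseudokinase that DDIT3 induces, went from 15.6, 37.3 and 27.8 CPM to 2.34, 2.39 and 2.71 CPM (log2 difference -3.47 ± 0.28 [-2.29]), and in both genes scramble library 2 was the highest and library 1 the lowest of its group, above every control lentivirus library. The glutathione-degrading enzyme CHAC1 fell (-4.11). ATF4 mRNA itself fell (-0.60) and did not pass with the offset (0.11). The serine pathway enzyme SHMT2 (-2.14 [-1.42]), the amino acid transporter SLC7A11 (-1.79) and the tRNA ligase WARS1 (-1.35), all of this list, also fell. VLDLR and ATF3 rose, by 0.82 [0.44] and 0.68.

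The unfolded protein response followed the same direction, with 16 of 22 genes down and 2 up (median -0.98), and 19 down and none up with the offset. HSPA5, the endoplasmic reticulum chaperone BiP, measured 905, 2193 and 1583 CPM in the scramble libraries and 491, 498 and 503 CPM in the control lentivirus libraries (log2 difference -1.67 ± 0.24, adjusted p = 1.6e-04). HERPUD1, which helps clear misfolded protein, went from 98.6, 239 and 168 CPM to 28.2, 27.3 and 26.8 CPM (log2 difference -2.64 ± 0.26). The control lentivirus libraries were nearly level in both, while the scramble libraries spread more than 2-fold from library 1 to library 2. SDF2L1, a BiP cofactor, fell (-3.08 [-1.41]), the ubiquitin ligase SYVN1 (-2.30) and the chaperone HYOU1 (-1.999). HSP90B1 fell from 787, 2062 and 1446 CPM to 706, 702 and 688 CPM (log2 difference -1.05 ± 0.26). The sensor ATF6 and the channel component DERL1 rose by 0.43 [-0.02] and 0.32 [-0.05], and neither passed with the offset. DERL1 also lost its call with library sizes unscaled (0.13).

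The endoplasmic reticulum stress element (ERSE), to which ATF6 is known to bind together with NF-Y, was found on either strand in 6 of 23 promoters of 20 matched genes of this list (26.1%) and in 26 of all 35116 promoters (0.0740%). The last 120 bases before the starts of HSPA5 and HSP90B1 show it in capitals, in opposite orientations.
HSPA5 (chr9:125241344-125241463, minus strand): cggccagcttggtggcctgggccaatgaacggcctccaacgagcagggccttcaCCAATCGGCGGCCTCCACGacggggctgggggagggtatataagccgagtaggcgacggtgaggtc
HSP90B1 (chr12:103930290-103930409, plus strand): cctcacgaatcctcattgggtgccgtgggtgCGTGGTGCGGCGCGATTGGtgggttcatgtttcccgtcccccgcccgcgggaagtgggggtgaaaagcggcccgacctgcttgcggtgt
The element begins 66 bases before the start of HSPA5 and 89 bases before that of HSP90B1, which holds another 194 bases before it.

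These programmes did not stand alike against the other 9 libraries. The mean log2 level of the unfolded protein response genes was 6.38 to 7.34 in the scramble libraries, 5.89 to 5.91 in the control lentivirus libraries and 6.00 to 6.44 in the other 9, so on this list scramble libraries 2 and 3 lay above all others and the control lentivirus libraries below all others. The mean level of the hypoxia and glycolysis genes was 7.06 to 7.22 in the scramble libraries and 5.51 to 5.76 in the control lentivirus libraries, and 6.96 to 7.39 in the other 9, so there the control lentivirus libraries were the ones below the rest. For the integrated stress response the scramble libraries lay above and the control lentivirus libraries below all of the other 9: 4.63 to 5.33 with scramble, 3.37 to 3.45 with control lentivirus and 4.09 to 4.62 elsewhere. Cell cycle genes ordered by delivery, at 4.20 to 4.74 in the 9 siRNA libraries, 5.87 to 5.94 with the ATRNL1 lentivirus and 6.86 to 6.95 with the control lentivirus.

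**Figure D3:**
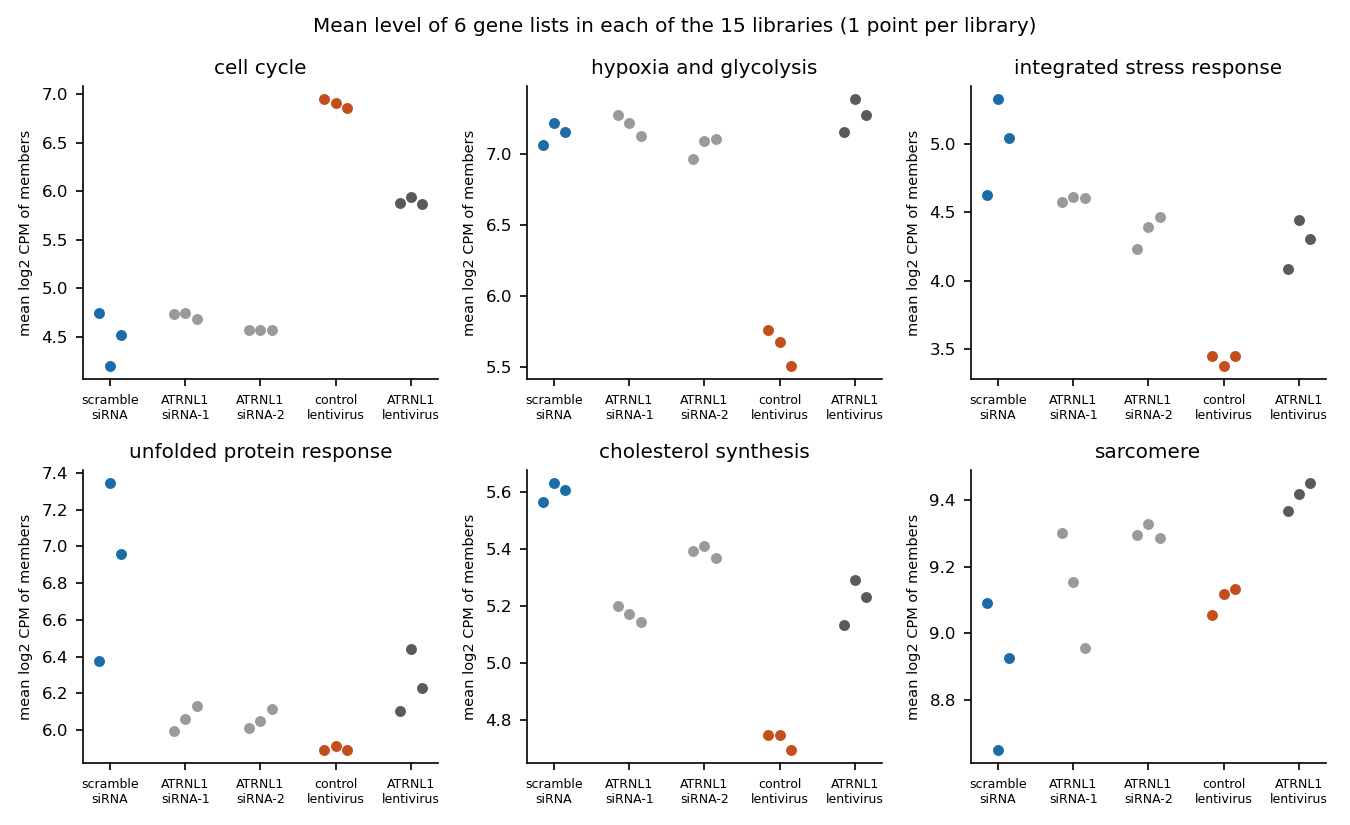
Mean log2 CPM of the members of 6 gene lists (y axis) in each of the 15 libraries by group (x axis, 1 point per library). Control lentivirus libraries stand above all others for the cell cycle and below all others for hypoxia and glycolysis, and for the unfolded protein response scramble libraries 2 and 3 stand above and control lentivirus libraries below all others.

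Targets of p53 fell, 20 of 26 with 2 rises (median -0.57), against 34.2% falls over all genes. With the offset 22 fell and 1 rose, against 30.2% falls. CDKN1A, the CDK inhibitor p21, measured 359, 453 and 397 CPM in the scramble libraries and 66.4, 72.7 and 73.0 CPM in the control lentivirus libraries (log2 difference -2.53 ± 0.09 [-1.66], adjusted p = 1.1e-08). The ligase MDM2, which degrades p53, fell less, from 216, 249.98 and 232 CPM to 170.3, 171 and 174 CPM (log2 difference -0.45 ± 0.06 [-0.85]). The cell death genes BBC3 and BAX fell (-3.38 [-1.26] and -1.71 [-0.79]) and the AKT inhibitor PHLDA3 (-2.60 [-1.57]). In each of these 5 genes the control lentivirus libraries lay below every scramble library, while the groups did not overlap at 71.0% of all genes.

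Cytosolic heat shock genes did not move together: 7 rose and 11 fell of 20 (median -0.48), or 4 and 11 with the offset. The shares over all genes were 32.1% and 34.2%, or 27.8% and 30.2% with the offset. HSPA1B fell from 78.4, 149 and 109 CPM to 31.9, 32.7 and 31.4 CPM (log2 difference -1.82 ± 0.18 [-0.87]), but its near-identical copy HSPA1A (-0.95 [0.11]) can share its reads, so both values are uncertain. DNAJB1 fell (-1.39) and the master regulator HSF1 (-2.32 [-0.75]), while DNAJB4 rose by 1.09 [0.37]. Immediate early genes, the first transcribed after a stimulus, fell in 16 of 21 cases (median -1.19), and with the offset in 10, against 7 rises (median -0.53). EGR1 went from 36.5, 33.3 and 35.9 CPM to 7.19, 8.25 and 9.24 CPM (log2 difference -2.12 ± 0.09), FOS fell (-1.94) and KLF6 rose by 0.82. The letters TGANTCA of the AP-1 site, a motif added after the data had been seen, occurred on either strand in 0 of 20 promoters of 16 matched genes of this list and in 6.57% of all promoters.

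Lipid synthesis genes fell. Of 23 genes of the cholesterol list, 19 fell and 2 rose (median -0.84), and 1 rose and 14 fell with the offset. INSIG1, which holds the sterol sensor in the endoplasmic reticulum, measured 98.9, 108 and 102 CPM in the scramble libraries and 34.8, 31.1 and 29.5 CPM in the control lentivirus libraries (log2 difference -1.71 ± 0.07, adjusted p = 2.2e-08). The early enzyme HMGCS1 fell from 208, 219 and 214 CPM to 139, 142 and 135 CPM (log2 difference -0.64 ± 0.05 [-1.13]) and the late enzymes MVD and DHCR7 (-3.10 [-1.61] and -2.40 [-1.50]). STARD4, which carries sterol between membranes, rose by 0.82 and did not pass with the offset (0.11). Among fatty acid synthesis genes, 9 of 14 fell (median -0.47; -0.20 with the offset). FASN, the fatty acid synthase, went from 119, 150.2 and 129 CPM to 9.31, 10.2 and 10.1 CPM (log2 difference -3.77 ± 0.09, a 13.6-fold fall), and the offset reduced this to -2.13. Its activator SREBF1 fell (-2.95 [-1.60]) and the desaturase SCD (-1.61), while malic enzyme ME1 rose by 1.61.

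Fatty acid oxidation genes split into 9 rises and 13 falls of 26, against 32.1% and 34.2% of all genes. PDK4, which closes the entry of pyruvate into mitochondria, rose from 1.85, 2.00 and 1.88 CPM to 6.90, 7.66 and 6.95 CPM (log2 difference 1.90 ± 0.10), and the fatty acid transporter CD36 rose by 1.83 [1.12]. The muscle carnitine transferase CPT1B fell (-2.16 [-1.37]) and the nuclear receptor PPARD (-1.38 [-0.46]). Nuclear genes of oxidative phosphorylation fell in 21 and rose in 9 of 40 cases (median -0.25; 26 and 3 with the offset), and cytosolic ribosomal protein genes fell in 31 of 40 (median -0.33).

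Interferon and antiviral genes moved both ways: 16 of 33 rose and 10 fell (median 0.42), against 32.1% and 34.2% of all genes. EIF2AK2, the RNA-sensing kinase PKR, measured 82.2, 81.8 and 80.7 CPM in the scramble libraries and 169.6, 162 and 165 CPM in the control lentivirus libraries (log2 difference 1.01 ± 0.04 [0.46], adjusted p = 3.3e-08). IFIT1, which binds foreign RNA, rose from 18.9, 13.3 and 16.9 CPM to 36.6, 37.0 and 36.7 CPM (log2 difference 1.16 ± 0.10 [0.75]) and B2M, the light chain of class I antigen presentation, from 235, 194 and 212 CPM to 399.9, 376 and 366 CPM (log2 difference 0.82 ± 0.07 [0.38]). RSAD2 rose by 3.03 at no more than 3.33 CPM. The regulator IRF7 fell (-2.81) and the class I gene HLA-C (-1.52), which the offset reduced to -1.00 and -0.16. ISG15 fell from 3.00, 1.88 and 2.57 CPM to 1.12, 0.982 and 0.630 CPM (log2 difference -1.42 ± 0.23) and stood at 0.02 with the offset, without a call. The interferon-response letters GAAANNGAA occurred on either strand in 23 of 41 promoters of 32 matched genes (56.1%) and in 6.88% of all promoters.

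NF-kB and cytokine genes fell in 10 of 16 cases (median -0.92), against 34.2% of all genes. But with the offset 6 rose and 6 fell (median 0.14), against 27.8% and 30.2%. The cytokine LIF fell (-2.44) and the signalling inhibitor SOCS3 (-1.82 [-0.74]), whereas the adhesion molecule VCAM1 rose by 1.03 [0.34] and the subunit NFKB1 by 0.56.

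Markers of other cells moved in part with these differences. Smooth muscle and pericyte markers rose in 7 and fell in 3 of 12 cases, or 10 and 0 with the offset (median 0.56; 1.12 with the offset), and their summed level was 365.4 to 554.8 CPM in the scramble libraries and 1045 to 1069 CPM in the control lentivirus libraries. ACTA2, smooth muscle actin, which immature cardiomyocytes also express, went from 148, 56.3 and 109 CPM to 333, 315 and 294 CPM (log2 difference 1.58 ± 0.26, adjusted p = 4.0e-04), RGS5 rose by 1.82 [1.20] and LMOD1 by 2.02. Fibroblast markers fell in 6 of 10 cases (4 with the offset) and rose in none, summing to 172.6 to 235.3 CPM against 125.9 to 131.5 CPM. Their collagen COL3A1 went from 92.0, 70.8 and 84.9 CPM to 46.2, 45.0 and 44.6 CPM (log2 difference -0.88 ± 0.08) and POSTN, at 24.98, 15.4 and 20.7 against 18.5, 16.1 and 14.0 CPM, did not pass (-0.33 [-0.87]), although it did without scramble library 2 (-0.49). In bulk RNA, fewer cells of a type and less RNA per cell cannot be told apart, and the part of these cells in the cell cycle and matrix differences was not tested.

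Endothelial markers passed the filter at 5 of 14 genes, with 3 falls and no rise, NPR3 among them (median -0.54), and summed to 70.4 to 122 CPM against 86.7 to 93.8 CPM. With the offset 1 rose, 1 fell and the median turned to 0.20. The defining genes PECAM1, CDH5 and VWF had 34, 34 and 6 counts over all 6 libraries. Macrophage and blood markers passed at 4 of 12, summing to at most 2.19 CPM in a scramble library and 4.26 CPM in a control lentivirus library, and MRC1 and CD163 rose by 2.10 and 2.06 at those levels. The leukocyte gene PTPRC had 8 counts over the 6 libraries and HBA1 none. Pluripotent cell markers passed at 6 of 10, of which 2 rose and 1 fell (median 0.26, or -0.17 with the offset). They summed to 23.5 to 29.6 CPM against 30.8 to 33.5 CPM. The DNA methyltransferase DNMT3B rose by 1.05, while PODXL had 2391 counts over the scramble libraries and 1446 over the control lentivirus libraries. NANOG had 3 counts, POU5F1 65 and ZFP42 none over the 6 libraries. Skeletal muscle markers fell at 6 of the 6 that passed (median -1.53; 4 falls and -0.96 with the offset), with a summed level of 1015 to 1167 CPM against 397.6 to 402.6 CPM that rests mainly on creatine kinase CKM (-1.44 [-0.53]), which heart muscle makes too. The myogenic factors MYF5 and MYF6 and the myosin MYH1 had no count in the 6 libraries and MYOD1 had 4. Neural markers (median -1.21; -0.66 with the offset) summed to 137 to 159.8 CPM against 71.8 to 79.4 CPM, and SOX2 had 8 counts over the 6 libraries. Neurofilament genes, listed as neural, were not at background: NEFL went from 106, 127 and 115 CPM to 36.6, 32.1 and 28.6 CPM (log2 difference -1.85 ± 0.09) and NEFM fell (-2.59), while MAP2 rose by 1.26.

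**Figure D4:**
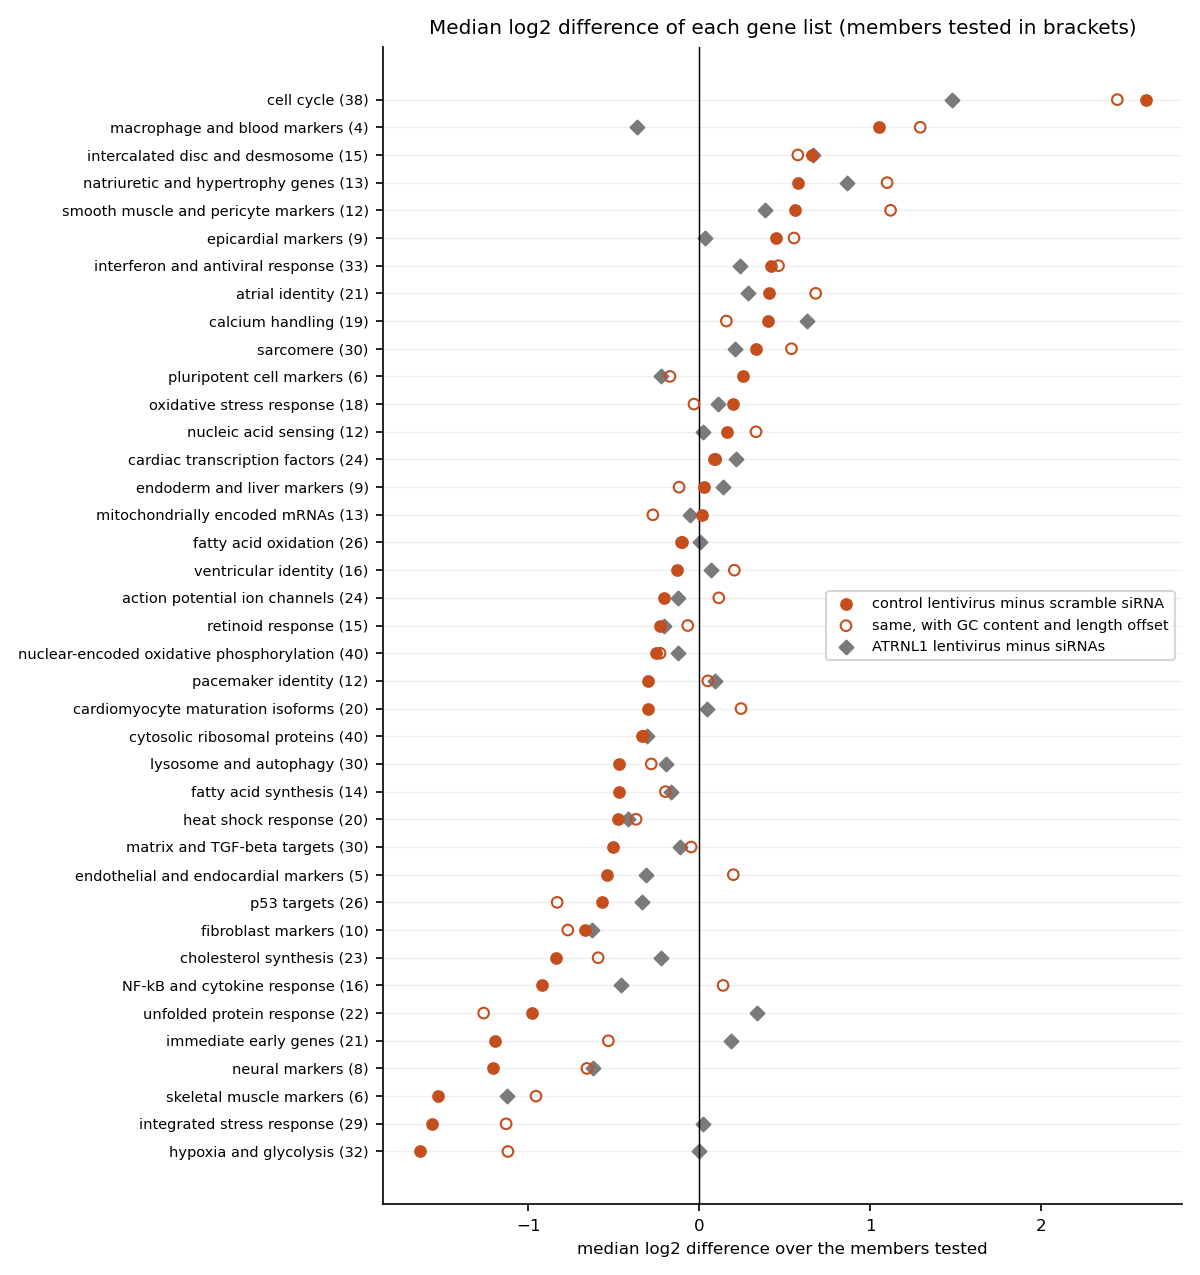
Median log2 difference (x axis) of the tested members of each of 39 gene lists (y axis, number tested in brackets) for control lentivirus minus scramble siRNA (filled circles), the same with the GC content and length offset (open circles), and ATRNL1 lentivirus minus the 2 ATRNL1 siRNAs in 9 other libraries (diamonds). The filled circle of the cell cycle list stands at 2.61 and that of the hypoxia and glycolysis list at -1.64, where the other pair is at 0.00.

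The study holds a second contrast of lentivirus against siRNA that shares no library with the first, ATRNL1 lentivirus minus the mean of both ATRNL1 siRNAs, in which ATRNL1 is overexpressed on one side and targeted by siRNA on the other. There 14241 of 23548 genes passed (60.5%, and 49.3% with the offset), 6715 of them up (28.5%) and 7526 down (32.0%). Of the 14946 genes called between the controls and tested in both, 13215 had the same direction in the second contrast (88.4%), 10793 were called in both the same way and 684 in opposite ways. Across genes, the Spearman correlation of the 2 contrasts was 0.80, and 0.61 after the offset. Both contrasts carry the GC trend, with a Spearman correlation of -0.70 in the second.

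The 2 contrasts were then tested against each other. Of 24659 genes, 7879 differed (32.0%, and 33.9% with the offset), 3813 of them higher (15.5%) and 4066 lower (16.5%) between the controls. The cell cycle rise was larger between the controls: 35 of 38 genes had a higher difference and none a lower one, with a median in the second contrast of 1.48. For the hypoxia and glycolysis list 31 of 32 genes had a lower difference, and in the second contrast 14 rose and 10 fell (median 0.00), or 22 and 5 with the offset (median 0.30). NDRG1 had a log2 difference of -3.55 between the controls and 0.62 in the second contrast, apart by -4.18. It was named as the largest fall of its list, so this gap is partly set by the choice. The difference was lower at 25 of 29 integrated stress response genes and 19 of 22 unfolded protein response genes. In the second contrast 16 of these 22 rose and 5 fell (median 0.34), or 12 and 4 with the offset (median 0.15). HSPA5 fell between the controls and rose in the second contrast (0.55), a gap of -2.22 (adjusted p = 3.9e-08), and NPR3 did so too (1.25, a gap of -4.22). With the offset the counts of cell cycle, hypoxia and glycolysis, integrated stress and unfolded protein response genes with a called gap were 35, 31, 24 and 19.

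Intercalated disc and sarcomere genes had gaps in both directions. The difference was higher between the controls at 4 of 15 intercalated disc genes and lower at 5, and the counts were 4 and 5 of 30 sarcomere genes, against 15.5% and 16.5% of all genes. Of the intercalated disc genes, 13 rose in the second contrast (median 0.67), with DSC2 at 1.31 there and a gap of 0.22 (adjusted p = 0.058). The sarcomere list had a median of 0.21 there (0.43 with the offset), MYH7 a value of 0.69 and MYH6 one of -1.42, with gaps of 0.12 and 0.35 (adjusted p = 0.43 and 0.067). With the offset the gaps of DSC2, MYH7 and MYH6 were 0.16, 0.32 and 0.55, each of them called (adjusted p = 0.048, 0.0020 and 0.0049). TXNIP rose in both, by 1.28 in the second, with a gap of 4.33. It was named for its size between the controls, so this gap is partly set by the choice. How much of any gap comes from ATRNL1 and how much from the cultures cannot be told apart, because the second contrast differs in ATRNL1 as well.

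**Figure D5:**
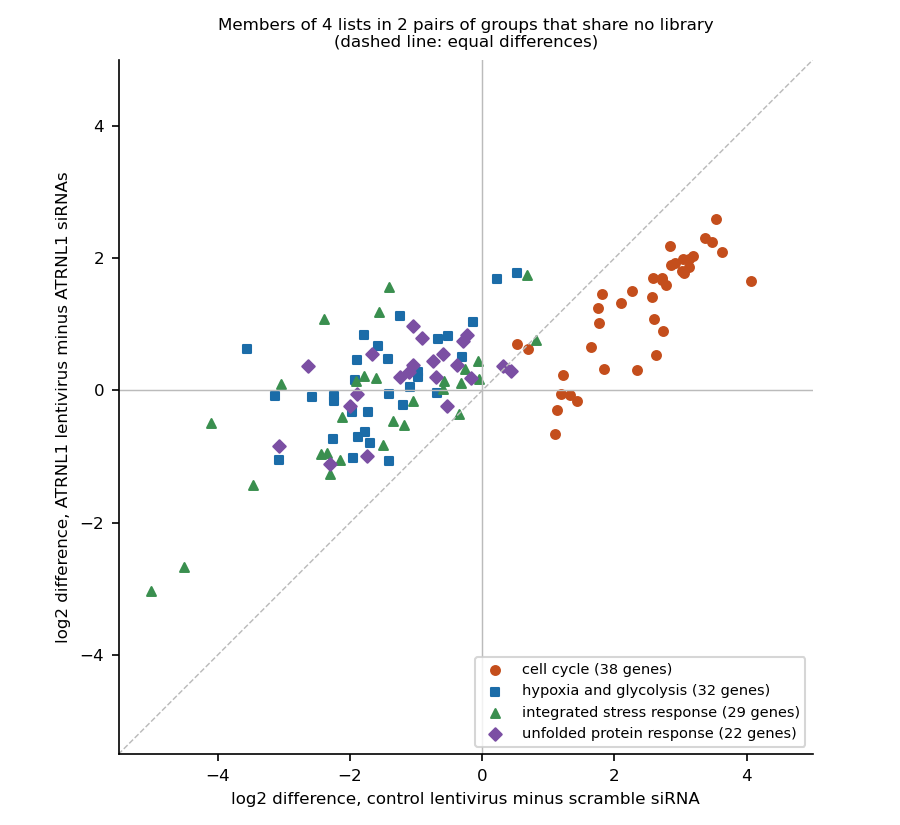
Log2 difference between the controls (x axis) and in ATRNL1 lentivirus minus the 2 ATRNL1 siRNAs (y axis) for the members of 4 gene lists, 1 point per gene. The 38 cell cycle genes lie to the right of 0 and mostly below the dashed line of equal differences. Most hypoxia, integrated stress and unfolded protein response genes lie left of 0, with second values on both sides of 0. Of 22 unfolded protein response genes, 16 rose in the second contrast and 5 fell.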

How the data were processed

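The deposited table holds raw read counts per gene, produced by the authors with STAR 2.7.9a on GRCh38, per the submitters' processing notes, which also list DESeq2 1.30.1 with no role. The labels' protocols describe ribosomal depletion, while the molecule field names polyA RNA. Of 59429 rows, 649 name no gene and were left out (at most 0.00437% of counts). Groups follow the treatment labels, and library numbers follow the table's columns.

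Counts were tested with edgeR 4.0.16 (TMM, filterByExpr, quasi-likelihood test, Benjamini-Hochberg threshold 0.05) in R 4.3.3. The 6 libraries were fitted alone, the other 9 alone, and all 15 together for the gap between contrasts. Alternatives were DESeq2 1.42.0, limma 3.58.1 voom with sample weights, other scalings and filters, leaving out each library, and, added after the data had been seen, an offset for GC content and transcript length (loess, span 0.4) and a fit without the middle libraries. The test was also run on simulated counts with few changed genes and no GC trend, a setting that differs from these data.

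Named genes are the 12 largest rises and falls among called genes with a mean of at least 1 CPM and no overlap between groups, up to 4 called members of each gene list by the size of their difference, and a panel of 39 genes. Other genes were named after their values were seen, for their role in a list, and some genes are not reported here. The members and the 39 lists were chosen with earlier results of these data known. Lists not described in the text had these medians, each with its counts and then the median, rises and falls with the offset: cardiomyocyte maturation isoforms -0.30 (7 up and 11 down of 20; 0.25, 9 and 6), pacemaker identity -0.30 (4 up and 5 down of 12; 0.05, 6 and 5), cardiac transcription factors 0.09 (10 up and 9 down of 24; 0.10, 12 and 5), retinoid response -0.23 (3 up and 7 down of 15; -0.07, 7 and 5), oxidative stress response 0.20 (8 up and 6 down of 18; -0.03, 6 and 5), nucleic acid sensing 0.16 (5 up and 5 down of 12; 0.33, 6 and 3), lysosome and autophagy -0.47 (5 up and 19 down of 30; -0.28, 4 and 21), matrix and TGF-beta targets -0.50 (8 up and 18 down of 30; -0.05, 10 and 14), epicardial markers 0.45 (4 up and 2 down of 9; 0.56, 5 and 2) and endoderm and liver markers 0.03 (2 up and 2 down of 9; -0.12, 3 and 3). Promoter sequences are RefSeq's for GRCh38.p14.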

Additional observations from a re-analysis of the deposited data

Results flagged for a closer look

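The log2 difference of control lentivirus minus scramble was tested against that of ATRNL1 lentivirus minus both ATRNL1 siRNAs for 63 genes, the 39 of a panel and the 24 largest changes. By edgeR's quasi-likelihood test of the gap, 47 of the 63 differed, 26 of the panel and 21 of the largest, against 32.0% of all genes. Of the largest changes, MT-RNR1, MT-RNR2 and TNXB had no called gap. The largest changes were picked for their size between the controls, so gaps in that direction are partly set by the choice, and the gaps below are given as values. ATRNL1, which was manipulated in the second contrast only, had a gap of -5.95, and its paralog ATRN one of -0.72.

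Among the leading rises, the gap was 4.33 for TXNIP, 3.11 for XKR5, 2.64 for PCLAF, 2.58 for FAM111B, 2.47 for XKR4, 2.41 for RRM2, 2.38 for TEX15, 2.24 for CDKN2C, 1.86 for SPC25 and 1.65 for PBK. The proliferation genes of the panel had smaller gaps, 1.26 for MKI67 and 0.94 for TOP2A. Among the leading falls, it was -5.41 for HSPA6, -5.07 for CACNA1I, -4.97 for NDUFA4L2, -4.69 for HSF4, -4.55 for LCNL1, -3.57 for NMB, -2.59 for STAC2, -2.15 for PMEL, -1.98 for GDF15, -1.93 for HAGHL and -1.85 for DDIT4.

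Stress and lipid genes of the panel also differed, with gaps of -3.14 for DDIT3, -2.22 for HSPA5, -1.26 for HMGCS1, -0.90 for CDKN1A and -0.39 for MDM2. CACNA1I, HMGCS1 and HSPA5 fell between the controls and rose in the second contrast. Interferon genes had gaps of -0.81 for ISG15, -0.40 for IFIT1 and 0.42 for B2M.

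Of the heart muscle panel, the gap was -1.44 for GJA1, -1.02 for TNNI3, -0.71 for NPPB, -0.67 for NPPA, -0.57 for PLN, -0.55 for TNNI1 and -0.34 for RYR2, all lower between the controls. It was higher for CASQ2 (0.81), MYL4 (0.75), GJA5 (0.71), KCNA5 (0.59) and HCN4 (0.38). The smooth muscle actin ACTA2 had a gap of 0.69 and the collagen COL3A1 one of -0.35. With the GC content and length offset, the gaps of COL3A1, ISG15 and NPPB were no longer called.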

How the results depend on the processing

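The count of 15159 called genes ranged from 11894 (without the middle libraries) to 17694 under other fits, filters and scalings, and from 13573 to 15575 when 1 library was left out. The count of 6702 genes that differed by at least 1 moved by over 1.5 times to 4447 with a filter of 1 CPM in 3 libraries, which tests fewer genes, and to 4112 with the GC content and length offset. It was 6512 to 7403 with 1 library left out. Calls in the second contrast ranged from 11596 to 14567, and with library sizes unscaled they split into 4194 rises and 10042 falls instead of 6715 and 7526. The gap between the contrasts was called at 7597 to 8355 genes.

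Of the 163 genes named with a difference, 154 kept their direction and their side of the threshold under every fit, filter and scaling tried other than the offset and the fit without the middle libraries. The offset changed 17 of the named genes and reversed 9 of these. Of the 9, HCN4 (0.71) and PLN (-0.20) were called the other way and ATRN was called at -0.12. ATF4 (0.11), HSPA1A (0.11), NPPB (0.0535), ISG15 (0.0194), ATF6 (-0.0162) and DERL1 (-0.0489) ended without a call. Without a change of direction, 4 lost their call (EGLN1, MYH6, STARD4 and VCAM1) and 4 gained one (BNIP3L, GJA1, MYL7 and POSTN). ATRN was also called at -0.18 with library sizes unscaled. The median of 10 of the 39 lists changed sign with the offset and that of 4 under the other fits, filters and scalings or with 1 library left out. The cause of these changes was not tested. No paired analysis was possible because the labels give the groups compared no shared replicate number.

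Genes with few counts, such as HSPA6, LCNL1 and TEX15, have folds limited by counting.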
